A study of Mus musculus with 7 samples.

Results

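Retinoid metabolism genes are described here by 8 members chosen by name for their roles in making, binding and taking up retinoids: Aldh1a1, Aldh1a2, Aldh1a3, Rdh10, Dhrs3, Crabp2, Rbp4 and Stra6. They are 8 of 53379 gene IDs counted in RNA from EPCAM-positive endometrial epithelial cells, which cover the uterine lumen and form its glands, pulled from digested mouse uteri with magnetic beads. The 4 mutant libraries came from single CD-1 mice aged 120 days with 1 Cre allele at Ltf (lactoferrin) and both Brg1 alleles floxed (LtfCre 0/+; Brg1 fl/fl). The 3 libraries labelled Control wild-type, also CD-1, each hold cells of several mice and are reanalysed from another series. Smarca4 is the gene symbol of Brg1, the motor subunit of SWI/SNF remodellers. Ltf is active in the uterine epithelium, and the allele is deleted in cells in which Cre has acted. From the label wild-type, the control mice are taken to carry neither Cre nor the floxed allele. Neither their age nor any mouse's stage of the oestrous cycle is stated in the sources used here. All mutants are single mice and all controls are pools from another set of libraries, so genotype, pooling and library set cannot be told apart in any comparison. P-values rest on the variation among those single mice and pools.

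Retinol travels in blood bound to RBP4 and enters cells through the membrane receptor STRA6. Inside the cell RDH10 oxidises retinol to retinal, DHRS3 reduces retinal back to retinol, and ALDH1A1, ALDH1A2 or ALDH1A3 oxidises retinal to retinoic acid in a step that is not reversed. CRABP2 carries retinoic acid to nuclear receptors of the RAR and RXR families, and CYP26 enzymes break it down. In the uterus retinoic acid is known as a regulator of epithelial differentiation and of the stromal response to pregnancy.

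Gene reads ranged from 12436971 to 13364080 in mutant libraries and from 21372036 to 25862245 in control libraries. Levels are counts per 1000000 gene reads scaled by TMM, edgeR's factor for differences in RNA composition (normalised CPM). The floor of 3 reads, a limit from counting error alone, lay at 0.182 to 0.234 CPM in mutant libraries and at 0.136 to 0.158 CPM in control libraries. The floxed gene itself, Smarca4, measured 87.4, 56.6, 86.7 and 105 CPM across mutant replicates 1 to 4, against 263, 245 and 279 CPM in controls (log2 fold change −1.64 ± 0.23 SE, edgeR adjusted p = 0.00967). Its fall did not pass when any 1 control library was left out (edgeR adjusted p = 0.0612, 0.0532 and 0.0575 without control replicates 1, 2 and 3). The log2 fold change stayed between −1.76 and −1.48 whichever library was left out. DESeq2 run here gave Smarca4 adjusted p = 1.95e-08, and the authors' deposited table gives 5.38e-11. Reads over the deleted exons were not separated from the rest of the gene. Summed over 8 epithelial markers, mutants held 7607 to 11106 CPM and controls 15543 to 18944 CPM. Of the 8, 2 were called lower (Cdh1 and Krt8), and Krt18, Krt19, Cldn3 and Cldn4 overlapped between groups. Epcam itself was present in every library but below all controls in every mutant, at 572 to 742 against 821 to 964 CPM. It was not called. In these bulk samples fewer cells of a type and less RNA per cell cannot be told apart.

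No retinoid metabolism gene passed the edgeR test between genotypes. On log2 CPM each tested member had a larger SD among the mutants than among the pooled controls. The median SD over all tested genes was also larger in mutants, at 0.52 against 0.24. On CPM without the log, Aldh1a2 went the other way, with an SD of 5.46 in mutants and 18.2 in controls. Of 7 members that passed the filter on low counts, mutants had 0 higher and 0 lower at a Benjamini-Hochberg adjusted p under 0.05 (quasi-likelihood test of edgeR), where 11.5% of 14610 tested genes were called, 5.37% as higher and 6.18% as lower. At an unadjusted p under 0.05 there were 2, Stra6 and Aldh1a2, a share near the 31% of all tested genes under that limit. DESeq2 called the same pair, Stra6 higher (adjusted p = 0.00571) and Aldh1a2 lower (adjusted p = 0.0314), where it called 23.6% of all genes to which it gave an adjusted p, 12.4% as higher and 11.3% as lower. It gave none for Aldh1a3. Limma-voom called 0 members and 13.3% of all genes, 5.35% as higher and 7.95% as lower. The median log2 fold change was 0.56 over the 7 tested members and 0.06 over all tested genes. Rbp4 did not pass the filter.

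**Figure D1:**
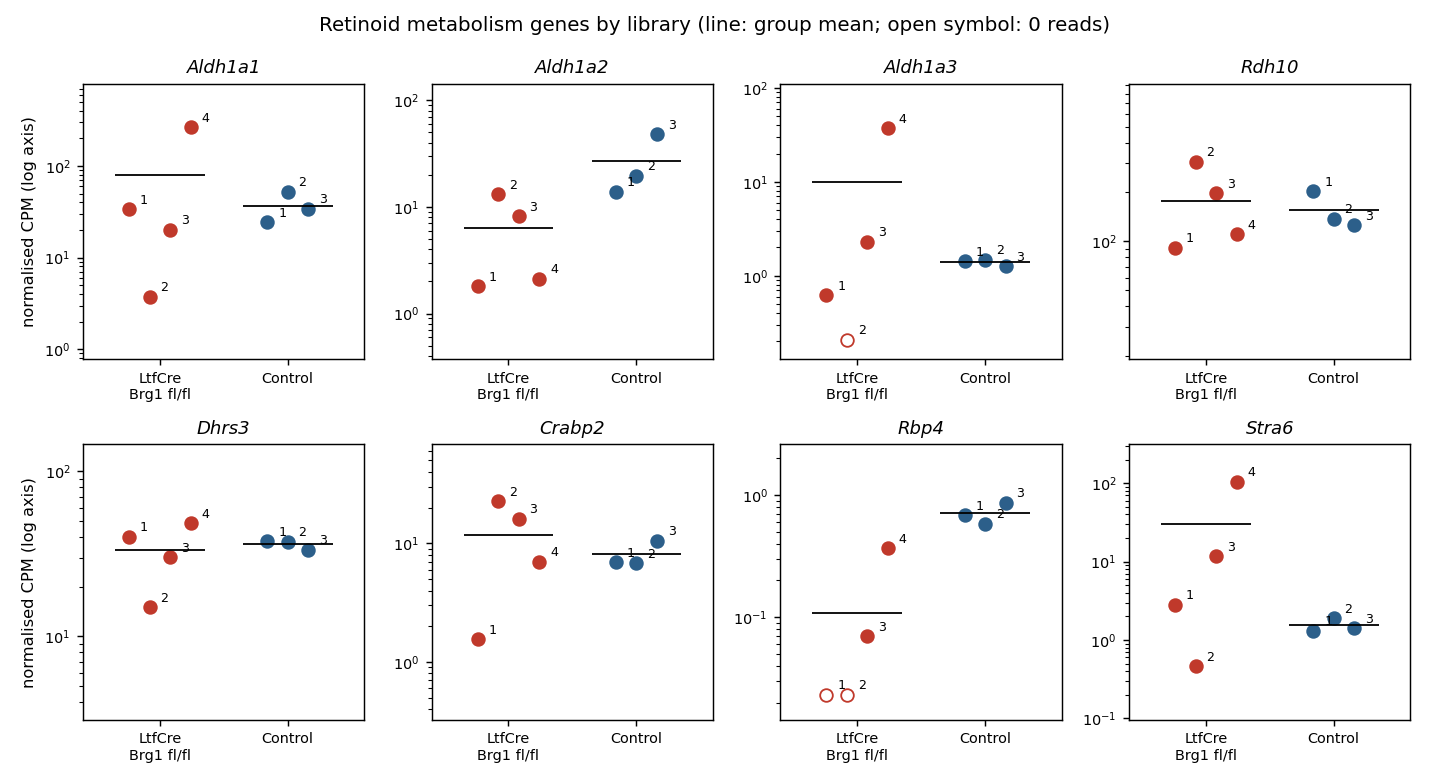
Normalised CPM of the 8 retinoid metabolism genes on log axes, with each numbered point a library (red mutants, blue controls), lines at group means and open symbols for 0 reads. Stra6, Aldh1a1 and Aldh1a3 are highest in mutant replicate 4, at 104, 264 and 36.9 CPM, while Aldh1a2 lies lower in every mutant than in every control.

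The uptake receptor Stra6 had the largest fitted difference, and it rested mainly on 1 mouse. Stra6 was at 2.81, 0.459, 11.7 and 104 CPM across mutant replicates 1 to 4, against 1.32, 1.90 and 1.41 CPM in controls. Mutant replicates 1, 3 and 4 lay above all controls and mutant replicate 2 below them, so the groups overlapped. Mutant replicate 4 stood 67.7-fold above the control mean. The log2 fold change was 4.27 ± 1.68 SE (95% interval 0.35 to 8.19, edgeR adjusted p = 0.136), and 1.71 without mutant replicate 4 (edgeR adjusted p = 0.319). The authors' deposited table gives Stra6 a log2 fold change of 4.28 with adjusted p = 0.00582.

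The retinal dehydrogenases Aldh1a1 and Aldh1a3 were also highest in mutant replicate 4. Aldh1a1 was at 33.6, 3.75, 20.3 and 264 CPM across mutant replicates 1 to 4, against 24.3, 52.6 and 34.3 CPM in controls. Mutant replicate 4 was 7.14-fold above the control mean, mutant replicates 2 and 3 lay below every control, and mutant replicate 1 fell among them. Aldh1a3 was at 0.625, 0, 2.31 and 36.9 CPM across mutant replicates 1 to 4, against 1.42, 1.48 and 1.27 CPM in controls. Here mutant replicates 3 and 4 were above all controls, mutant replicate 4 by 26.6-fold over their mean, and mutant replicates 1 and 2 below all of them. Neither gene passed the test, with log2 fold changes of 1.12 ± 1.21 SE for Aldh1a1 (edgeR adjusted p = 0.565) and 2.84 ± 1.76 SE for Aldh1a3 (edgeR adjusted p = 0.312). Both values turned negative without mutant replicate 4, to −0.94 and −0.48. Over all tested genes mutant replicate 4 stood as far apart on the high side of the other mutants (by Dixon's criterion) for 1.19%. The summed stromal markers of mutant replicate 4 were the lowest of all libraries, at 210.0 CPM, close to mutant replicates 1 and 2 (231 and 240.1 CPM). Not every stromal marker followed the sum, as Dcn was highest among mutants there, at 47.6 CPM. Its summed mesothelial markers were the highest among mutants, at 44.6 CPM against 46.5 to 63.0 CPM in controls. The part of stromal and mesothelial markers in the values of these 3 genes was not tested.

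The stretches just before the start sites of Stra6 and Aldh1a1, which share the high level in mutant replicate 4, and of Aldh1a2, which does not, are shown for comparison of their sequence. They come from RefSeq on GRCm38.p6, all on the plus strand, for a start site at or nearest to that of a principal transcript (for Stra6 the most upstream of several), and leave out annotated exons.
Stra6 (chr9:58128988-58129087): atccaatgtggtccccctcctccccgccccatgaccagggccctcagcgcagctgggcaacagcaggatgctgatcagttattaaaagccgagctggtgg
Aldh1a1 (chr19:20601868-20601960): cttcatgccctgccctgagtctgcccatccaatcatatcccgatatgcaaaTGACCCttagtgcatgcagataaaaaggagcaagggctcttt
Aldh1a2 (chr9:71215689-71215788): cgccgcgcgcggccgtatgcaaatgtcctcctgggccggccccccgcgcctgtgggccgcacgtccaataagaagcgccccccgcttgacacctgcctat
Capitals mark the 6-base core that retinoic acid receptors recognise, searched on both strands in the forms AGGTCA or AGTTCA and also GGGTCA or GGTTCA. Promoter windows, from 250 bases before to 50 after a start site, were found for 5 of the 8 members, 12 windows in all. Aldh1a3, Rdh10 and Crabp2 had none. The core was in 3 of the 12 windows, against 43.7% of 32851 windows over all genes. These were a window each of Aldh1a1, Rbp4 and Stra6. The Stra6 match lay 15 to 20 bases after a start further downstream (chr9:58134075), outside the printed stretch. No member's window held a direct repeat of the core spaced by 1, 2 or 5 bases (DR1, DR2 or DR5), which are in 0.222%, 0.268% and 0.0974% of all windows. A match or its absence describes the letters of these windows only.

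Aldh1a2 was the only tested member whose mutant and control ranges did not overlap, where 31.5% of all tested genes did not. This retinal dehydrogenase was at 1.80, 13.2, 8.18 and 2.13 CPM across mutant replicates 1 to 4, against 13.95, 19.6 and 47.9 CPM in controls. Every mutant was below every control, but mutant replicate 2 lay just under the lowest one. The log2 fold change was −2.10 ± 0.77 SE (95% interval −3.89 to −0.31, edgeR adjusted p = 0.116), and −1.39 without control replicate 3. The authors' deposited table gives Aldh1a2 a log2 fold change of −2.08 with adjusted p = 0.0314. Aldh1a2 is known from uterine stroma and from mesothelium. The sum of 12 stromal markers was 231, 240.1, 578 and 210.0 CPM across mutant replicates 1 to 4. In controls it was 695, 832 and 651 CPM. Of the 12, only Dcn was called lower, at 28.7, 34.5, 40.1 and 47.6 CPM in mutants against 148, 139 and 97.9 CPM in controls. Pdgfra and Col1a1 were present in every library, and Hand2 was at 0 in 1. The sum of 6 mesothelial markers was 10.5, 19.1, 14.3 and 44.6 CPM in mutants, against 49.8, 63.0 and 46.5 CPM in controls, none of them called. Neither sum overlapped between genotypes, and their part in the values of Aldh1a2 was not tested.

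Rdh10, which makes retinal, had the highest mean level per length in both groups, though not in mutant replicate 4. It was at 91.4, 307, 196 and 111 CPM across mutant replicates 1 to 4, against 202, 138 and 125 CPM in controls. Mutant replicate 2 was above all controls and mutant replicates 1 and 4 below them. The log2 fold change was 0.19 ± 0.43 SE (95% interval −0.83 to 1.20, edgeR adjusted p = 0.807). Dhrs3, which runs the reverse step and is induced by retinoic acid, was at 40.2, 15.01, 30.1 and 48.6 CPM in mutants, against 37.8, 37.6 and 33.5 CPM in controls. Mutant replicates 1 and 4 lay above all controls and mutant replicates 2 and 3 below them, around controls that stood close together (log2 fold change −0.12 ± 0.37 SE, 95% interval −0.97 to 0.73, edgeR adjusted p = 0.858), and the sign turned with upper-quartile (0.028) and total count scaling (0.26).

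Crabp2, the carrier of retinoic acid to its receptors, was at 1.56, 22.7, 16.1 and 6.995 CPM across mutant replicates 1 to 4, against 6.90, 6.76 and 10.5 CPM in controls. Mutant replicates 2 and 3 exceeded all controls, mutant replicate 1 was below all of them and mutant replicate 4 lay among them. The log2 fold change was 0.56 ± 0.75 SE (95% interval −1.20 to 2.31, edgeR adjusted p = 0.653).

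Rbp4, the retinol carrier, was scarce in every library. It had 0, 0, 1 and 6 reads in mutant replicates 1 to 4 (0, 0, 0.0699 and 0.365 CPM), against 13, 11 and 19 reads in controls (0.684, 0.581 and 0.862 CPM). All mutants were below all controls, and mutant replicates 1 to 3 were under the floor of 3 reads. Without the filter on low counts Rbp4 did not pass (edgeR adjusted p = 0.193 over 29033 genes), and the authors' deposited table gives it adjusted p = 0.0243.

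**Figure D2:**
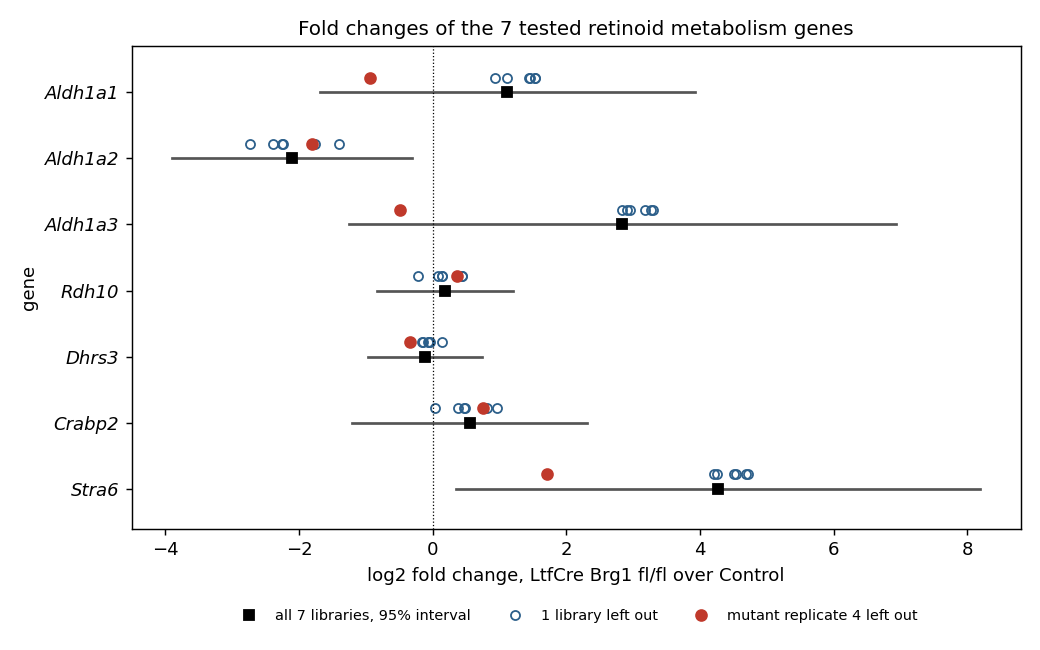
Log2 fold change, mutant over control, of the 7 tested members: black squares with 95% intervals use all 7 libraries, open circles leave out 1 library each, and red circles leave out mutant replicate 4. The values of Aldh1a1 and Aldh1a3 cross 0 without mutant replicate 4, to −0.94 and −0.48, and that of Stra6 is 1.71.

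The tested members shared few orders among the mutant mice, a grouping made after the values were seen. Aldh1a1, Aldh1a3, Stra6 and Dhrs3 were highest in mutant replicate 4 and lowest in mutant replicate 2, an order shared by 8.55% of all tested genes. Aldh1a2, Rdh10 and Crabp2 were highest in mutant replicate 2 and lowest in mutant replicate 1, as were 12.6% of all tested genes. The mRNAs of the uptake receptor and of these dehydrogenases were thus highest in the same mouse, while those of Rdh10, Crabp2 and Aldh1a2 were highest in another. The SD of log2 CPM among mutants was 3.47 for Aldh1a3, 3.18 for Stra6 and 2.51 for Aldh1a1, at or above that of 99.6%, 99.4% and 98.2% of tested genes. It was 1.68 for Crabp2, 1.38 for Aldh1a2, 0.80 for Rdh10 and 0.74 for Dhrs3, where the median gene had 0.52. Among the pooled controls the SD was 0.10 for Aldh1a3, 0.26 for Stra6, 0.56 for Aldh1a1, 0.36 for Crabp2, 0.91 for Aldh1a2, 0.37 for Rdh10 and 0.098 for Dhrs3, with a median gene of 0.24. The difference was proportionally smallest for Aldh1a2.

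Levels per kilobase of exon let the members be ranked. In controls Rdh10 led at 37.2 ± 9.9 CPM per kilobase (SD, n = 3), above Dhrs3 at 12.4 ± 0.82, Aldh1a2 with a range of 6.16 to 21.2, Aldh1a1 at 7.502 ± 2.9 and Crabp2 at 6.10 ± 1.6 CPM per kilobase. The ranges of Dhrs3 and Aldh1a2, of Aldh1a2 and Aldh1a1, and of Aldh1a1 and Crabp2 overlapped, so those neighbours were not separated. Rbp4 followed at 0.528 ± 0.11, then Aldh1a3 at 0.301 ± 0.023 and Stra6 at 0.264 ± 0.054 CPM per kilobase, whose ranges overlapped. In mutant replicate 4 Aldh1a1 led instead, at 53.5 CPM per kilobase, ahead of Rdh10 at 26.6 and Stra6 at 17.9 CPM per kilobase. In mutant replicate 2 Rdh10 was at 73.7 and Crabp2 at 17.2 CPM per kilobase, and Aldh1a1 at 0.760.

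The gene with the most similar profile over the 7 libraries was looked up for each tested member, by the root mean square difference of centred log2 CPM. Crabp2 was closest to Eno1 (0.10), a glycolytic enzyme whose count is uncertain because 25.99% of its 50-base words occur in other genes. Dhrs3 was closest to Rnf145 (0.15), Rdh10 to Zfp36l2 (0.17), Aldh1a1 to Raver2 (0.33) and Aldh1a2 to Fbln1 (0.42), which encodes a matrix protein of connective tissue. Aldh1a3 and Stra6 had only distant neighbours, the collagen gene Col12a1 (0.78) and Clip4 (0.86). The members are protein-coding genes on GRCm38 (GENCODE M21 bounds). Those on the plus strand are Aldh1a1 (chr19:20492715-20643465), Aldh1a2 (chr9:71215789-71296243), Rdh10 (chr1:16105774-16133734), Dhrs3 (chr4:144892827-144928209), Crabp2 (chr3:87948666-87953376) and Stra6 (chr9:58063788-58153996). Aldh1a3 (chr7:66390890-66427517) and Rbp4 (chr19:38116629-38125281) are on the minus strand. No exon of a member overlapped an exon of another gene on either strand. Among the members themselves at most 3.06% of words were shared with other genes, for Aldh1a1, so the dehydrogenases were counted separately.

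**Figure D3:**
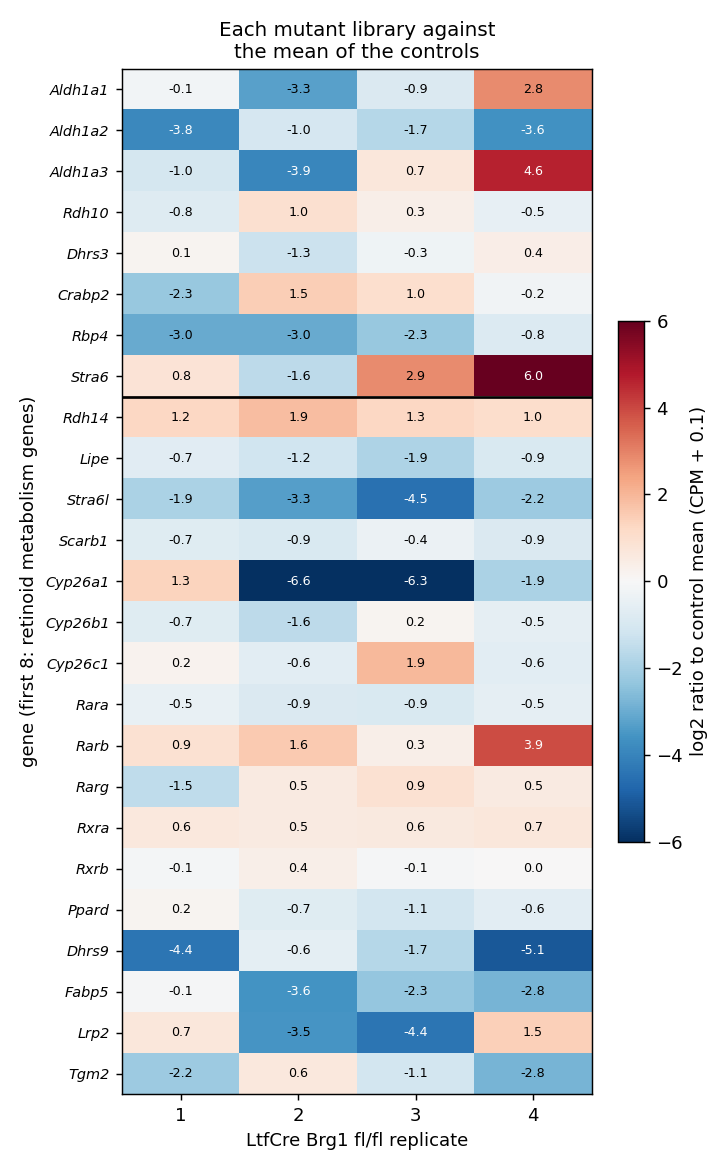
Log2 ratio of each mutant library to the mean of the 3 controls, computed on CPM + 0.1, for the 8 retinoid metabolism genes (above the line) and other retinoid pathway genes, with the colour scale ending at 6. Columns differ within most rows of the 8 genes, and Rdh14 is above and Scarb1 below the control mean in all 4 mutants.

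Beyond these members, 53 other retinoid pathway genes were found in the tables and 31 were tested. Of these 1 was higher and 3 were lower in mutants by edgeR, close to the share of 11.5% over all genes. The median log2 fold change was −0.17. Rdh14, a retinol dehydrogenase, was at 6.32, 9.88, 6.50 and 5.54 CPM in mutants against 2.95, 2.75 and 2.27 CPM in controls (log2 fold change 1.41 ± 0.32 SE, edgeR adjusted p = 0.0337). Stra6l, which encodes a second receptor for RBP4, fell to 3.75, 1.38, 0.559 and 3.10 CPM in mutants, against 13.7, 23.0 and 6.44 CPM in controls (−2.71 ± 0.68 SE, edgeR adjusted p = 0.0454). Scarb1, a lipoprotein receptor that also takes up carotenoids, fell by 0.70 on the log2 scale (edgeR adjusted p = 0.0484), and the hormone-sensitive lipase Lipe, which can release retinol from its esters, by 1.10 (edgeR adjusted p = 0.0476). The authors' deposited table gives adjusted p = 0.000149 for Rdh14, 0.00662 for Stra6l and 0.0312 for Scarb1, but 0.202 for Lipe, which did not pass there. All 4 genes were without overlap between groups, as were 10 of the 31, near the share of 31.5% over all tested genes. The counts of 1 and 3 became 3 and 0 with upper-quartile scaling and 3 and 1 with total count scaling, which put the median of all genes at 0.20 and 0.41. Both counts were 0 without mutant replicate 2 or without any 1 of the control libraries. They were 0 and 1 without mutant replicate 3, 1 and 1 without mutant replicate 4, and 3 and 8 without mutant replicate 1. The calls over all tested genes moved as well, from 784 higher and 903 lower to 2314 and 2089 without mutant replicate 1. Both of these totals fell when any other library was left out. Shifts in the counts when a library was left out were thus not confined to pathway genes.

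Of the receptors, none of 5 tested passed (2 at an unadjusted p under 0.05, as were 31% of all tested genes). Rxra was at 59.4, 55.7, 57.9 and 61.3 CPM in mutants against 37.1, 45.1 and 33.3 CPM in controls (log2 fold change 0.61 ± 0.17 SE, edgeR adjusted p = 0.0580). Rara was at 45.7, 34.6, 32.6 and 43.4 CPM in mutants, against 64.5, 69.5 and 53.7 CPM in controls (−0.68 ± 0.19 SE, edgeR adjusted p = 0.0623). Neither overlapped between groups, and DESeq2 run here on the filtered counts called both (adjusted p = 0.00753 for Rxra and 0.0152 for Rara). Without mutant replicate 1 both passed (edgeR adjusted p = 0.0329 for Rxra and 0.0324 for Rara). Rxra also passed with upper-quartile and total count scaling (edgeR adjusted p = 0.0355 and 0.0216) and with limma-voom (adjusted p = 0.0470). With total counts Rara was at −0.33 (edgeR adjusted p = 0.290). Of 16 alternatives Rxra passed in 5 and Rara in 2. In the authors' deposited table neither passed (adjusted p = 0.237 for Rxra and 0.0652 for Rara). Rarg (0.36), Rxrb (0.06) and Ppard (−0.50) had edgeR adjusted p from 0.298 to 0.854, and Rxrg had 0 reads throughout.

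Cyp26a1, a retinoic acid hydroxylase, ran in another order than the synthesis genes. It was at 119, 0.383, 0.489 and 12.6 CPM across mutant replicates 1 to 4, against 70.1, 34.5 and 37.7 CPM in controls. Mutant replicate 1 was above all controls and the other mutants below them, with mutant replicates 2 and 3 near the floor (log2 fold change −0.52 ± 1.58 SE, edgeR adjusted p = 0.853; −3.31 without mutant replicate 1). Summed gland markers were 11602, 135, 119 and 226 CPM across mutant replicates 1 to 4, against 16277, 47441 and 9159 CPM in controls, most of it in mutant replicate 1 from the proteases Prss28 and Prss29 (2710.5 and 8546.5 CPM). Of the 5 gland markers found, the gland regulators Foxa2 and Sox9 were called lower. Foxa2 was at 9.68, 1.76, 6.36 and 11.4 CPM in mutants, against 69.6, 51.8 and 32.6 CPM in controls. Cxcl15 was at 28.96, 0, 1.05 and 89.2 CPM in mutants, against 4.16, 9.29 and 10.3 CPM in controls. Among the mutants, Foxa2 and Cxcl15 were thus both highest in mutant replicate 4. There Foxa2 was below all controls and Cxcl15 above them. The part of gland markers in the values of Cyp26a1 was not tested. Cyp26b1 lay between 0.306 and 1.26 CPM in mutants and between 0.895 and 1.21 CPM in controls, and Cyp26c1 at or under 0.489 CPM in mutants and 0.158 CPM in controls. Rarb, a receptor gene that retinoic acid induces, had 2, 4, 1 and 32 reads in mutant replicates 1 to 4 (0.156, 0.306, 0.0699 and 1.95 CPM), against 2, 0 and 0 reads in controls. Its only level well above the floor was thus in mutant replicate 4, where Stra6, Aldh1a1 and Aldh1a3 were also high. In that library Dhrs3, also induced by retinoic acid, was above all controls at 48.6 CPM. Tgm2, which responds to retinoic acid in other cells, was below all controls there at 503 CPM, as was Cyp26a1 at 12.6 CPM. Retinoic acid signalling was not tested. Rarb did not pass the filter, and the authors' deposited table gives it adjusted p = 0.0381.

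Rarb and Cyp26a1 were the 2 among 15 other named pathway genes with a promoter window whose window held a DR5 repeat. They are shown because they differ from the members' windows in this; capitals mark the core in both copies, on the minus strand of chromosome 14 for Rarb and the plus strand of chromosome 19 for Cyp26a1.
Rarb (chr14:16575506-16575535): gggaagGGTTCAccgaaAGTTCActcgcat
Cyp26a1 (chr19:37697770-37697799): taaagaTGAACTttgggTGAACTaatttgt
The repeat lies 53 to 37 bases before the Rarb start and, in the opposite orientation, 32 to 16 bases before the Cyp26a1 start. The Rarb stretch lies within an exon that GENCODE M21 annotates.

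Among the other most abundant pathway genes, the retinol dehydrogenase Dhrs9 was at 26.7, 377, 172 and 16.7 CPM in mutants, against 559.6, 495 and 631 CPM in controls (log2 fold change −1.92 ± 0.96 SE, edgeR adjusted p = 0.219; −2.96 with edgeR adjusted p = 0.0876 without mutant replicate 2). Mutant replicates 2 and 3 held more of it than 1 and 4, as for Aldh1a2 and Rdh10, and all mutants were below all controls. Lrp2, the endocytic receptor megalin that takes up RBP4, was at 229, 12.3, 6.64 and 389 CPM in mutants against 118, 226 and 84.1 CPM in controls (0.16 ± 1.24 SE, edgeR adjusted p = 0.943), and the value was −0.78 without mutant replicate 4 and −0.071 without control replicate 3. Fabp5, a fatty acid binding protein that also binds retinoic acid, was at 28.6, 2.37, 5.87 and 4.26 CPM in mutants, against 27.5, 43.6 and 18.9 CPM in controls (−1.55, edgeR adjusted p = 0.241; −2.81 with edgeR adjusted p = 0.00730 without mutant replicate 1). Tgm2, a transglutaminase gene that responds to retinoic acid in other cells, was at 789, 5518, 1649 and 503 CPM in mutants, against 3574, 2883 and 4139 CPM in controls (−0.74, edgeR adjusted p = 0.549; −1.84 with edgeR adjusted p = 0.0643 without mutant replicate 2).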

How the data were processed

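Per the labels' protocols, cells were sorted with an EpCAM antibody and RNA went into directional KAPA libraries. The authors deposited STAR gene counts, whole-number reads per gene, for 7 libraries. The submitters' processing notes name STAR, DESeq2, Trim Galore, cutadapt, FastQC and the build mm10, without versions. The authors also deposited a table with log2 fold changes, adjusted p-values, a mean normalised signal and test scores per gene, per the file headers; fold changes and adjusted p-values were quoted and the signal and scores not used.

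Reverse-stranded counts (column 4) were used. Reads outside genes stayed out of library sizes: 3.90% to 6.70% unmapped, 8.45% to 11.2% multimapping, 10.5% to 14.7% without a gene and 0.827% to 1.29% ambiguous. Of 53379 gene IDs, 53274 matched a symbol. Genes kept by filterByExpr were tested with edgeR 4.0.16 (R 4.3.3, quasi-likelihood F test, TMM, two-sided, genotype only) with Benjamini-Hochberg adjustment over 14610 genes. The procedure was tested on simulated counts. Alternatives used DESeq2 1.42.0, limma-voom 3.58.1, other scalings, filters and counts, and left out each library. Members and lists were chosen with earlier results of these data known. Named genes were the members, Smarca4, pathway genes past the threshold, receptors, Cyp26 genes, the most abundant gene of each other pathway list and the closest profile per member. No pair of replicates agreed within sampling noise (lowest chi-square per degree of freedom 61.1). Sequences are from RefSeq, and exon lengths from GENCODE M21.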

Additional observations from a re-analysis of the deposited data

Results flagged for a closer look

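Of 34 named genes, 10 had 1 mutant library whose gap to the nearest other mutant exceeded Dixon's 95% critical value for 4 samples. That value flags about 1 gene in 20 by chance only if levels are normally distributed. Over all tested genes, mutant replicates 1 to 4 stood apart on the high side for 4.93%, 0.876%, 0.554% and 1.19%. On the low side they did so for 0.643%, 0.205%, 0.185% and 0.281%. Genes of 1 library are not independent. Mutant replicate 4 stood apart on the high side for Stra6 at 104 CPM, Aldh1a1 at 264 CPM, Aldh1a3 at 36.9 CPM, Rarb at 1.95 CPM, Raver2 at 6.02 CPM, Col12a1 at 65.6 CPM and Clip4 at 11.7 CPM. Raver2, Col12a1 and Clip4 were named for their likeness to members, which fixes this for them. Mutant replicate 1 stood apart for Cyp26a1 at 119 CPM and Fabp5 at 28.6 CPM, and mutant replicate 3 for Cyp26c1 at 0.489 CPM, which is 7 reads.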

How the results depend on the processing

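The count of members called was 0 in both directions under every alternative run except DESeq2 (1 higher, 1 lower), and leaving out any 1 library kept it at 0. Over all genes, 784 higher and 903 lower became 1178 and 704 with upper-quartile scaling, 2199 and 532 with total count scaling, 1789 and 1634 with DESeq2, and 355 and 702 without a filter; leaving out 1 library gave 45 to 2314 higher and 84 to 2089 lower. Other pathway genes, 1 higher and 3 lower, became 3 and 0 with upper-quartile scaling, 3 and 1 with total count scaling, 3 and 5 with DESeq2, 2 and 5 with limma-voom and 0 and 1 without a filter, and 0 to 3 higher and 0 to 8 lower with 1 library left out.

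Signs turned for Dhrs3 (upper-quartile scaling 0.028, total counts 0.26) and Rnf145 (0.054 and 0.28), and with limma-voom for Aldh1a1 (−0.23), Aldh1a3 (−0.031), Lrp2 (−1.31), Raver2 (−0.89) and Col12a1 (−0.059). With 1 library left out, log2 fold changes ran from −0.94 to 1.53 for Aldh1a1, −0.48 to 3.30 for Aldh1a3, −0.21 to 0.44 for Rdh10, −0.34 to 0.13 for Dhrs3, −0.041 to 0.16 for Rxrb, −0.78 to 0.72 for Lrp2, −1.13 to 0.99 for Raver2, −0.79 to 1.68 for Col12a1, −0.13 to 0.55 for Zfp36l2 and −0.31 to 0.11 for Rnf145. The cause of these changes was not tested.

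Mutants and controls share replicate numbers 1 to 3 by name only: the deviations of same-numbered libraries correlated at −0.02, −0.36 and 0.16 across genes. With the replicate block, which leaves mutant replicate 4 no partner, 2 genes were higher and 0 lower over all genes, 0 and 0 among members and 0 and 0 among other pathway genes, and the values turned to −1.24 for Aldh1a1, −1.19 for Aldh1a3, −2.59 for Lrp2, −1.46 for Raver2 and −1.12 for Col12a1.

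Depth limits Rbp4 in mutant replicates 1 to 3, Rarb in every library but mutant replicates 2 and 4, and Cyp26c1 in every library but mutant replicate 3, where levels were at or under the floor of 3 reads.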
